A study of Macaca fascicularis with 34 samples.

Results

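POU5F1, NANOG, SALL4, KLF4 and TFCP2L1 are 5 transcription factor genes of the pluripotency network, taken here by their human symbols from a table of 28551 genes of the cynomolgus monkey (Macaca fascicularis fascicularis), where each symbol has 1 row. POU5F1, NANOG and SALL4 are treated as core factors, and KLF4 and TFCP2L1 as naive-associated factors. The members were chosen for their known roles, not by a threshold on the values, though with earlier results of these data known. In the table POU5F1 (gene ID 102115117) is on chromosome 4, NANOG (102114964) on 11, SALL4 (102140093) on 10 and TFCP2L1 (102124314) on 12. KLF4 (101926136) is on 15 and has only a placeholder name in the monkey symbol column, while RefSeq calls the same ID KLF4.

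Expression was measured in 34 single cells by SC3-seq, a method that amplifies the cDNA of 1 cell and reads the 3′ ends of transcripts. Of these, 25 came from embryos at embryonic day (E) 13 (3 cells), E14 (1), E16 (11), E17 (2) and E20 (8), the period around gastrulation when primordial germ cells first appear. The other 9 came from male gonads at E36 (6 cells), E47 (1) and E55 (2). The labels give no treatment, genotype or animal and no cell type or way of choosing cells, so each stage is 1 sample, differences between cells are given as their spread (SD over n cells), and no difference was tested. Cells are numbered within a stage, and levels are in RPM, reads scaled to a fixed library total.

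POU5F1, which encodes OCT4, NANOG and SALL4 are best known from the pluripotent epiblast and embryonic stem cells, where they sustain one another's transcription, and all of them are also used by early germ cells. KLF4 and TFCP2L1 are associated with the naive state, the ground state of the preimplantation epiblast, and in mouse stem cells both act downstream of the cytokine LIF and its effector STAT3. Cells of the postimplantation epiblast, called primed, keep the core factors and lose much of the naive-associated set.

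The 34 cells differ in kind within a stage, and the results depend on it. Clustering on other genes, with the 5 factors and the pluripotency lists used below left out, gave a germ-cell-like cluster of 26 cells, made of 17 embryo and all 9 gonad cells, and a mesoderm-like cluster of 8 cells, made of E16 cell 8 and E20 cells 1 to 7. Summed over 11 germ cell markers such as TFAP2C and SOX17, the level was 890 to 3170 RPM in the germ-cell-like cluster and 41.6 to 806 RPM in the mesoderm-like one. Summed over 12 mesoderm markers such as HAND1 and FN1, it was 8.08 to 1135 RPM in the germ-cell-like cluster and 1898 to 15276 RPM in the mesoderm-like one. The clusters are named for these markers, which were not left out of the clustering as a set. These sums therefore describe the clusters and do not test them. The clusters are not uniform. E16 cell 8 also had the highest endoderm marker sum of the 34 cells, 5320 RPM (APOA1 at 1430 RPM), with amnion markers at 1994 and trophoblast markers at 2305 RPM, and FN1 made up 11411 RPM of its mesoderm sum of 15276 RPM. GATA3, KRT7, HAND1 and TFAP2A are in both the amnion and the trophoblast list, and HAND1 is also a mesoderm marker. Reads of these genes thus count in more than 1 sum. E20 cell 4 also had high amnion and trophoblast sums, 1747 and 1652 RPM. E20 cell 1 had the highest blood and endothelium sum, 1800 RPM (CDH5 at 1202 and KDR at 598 RPM), while that sum was at most 383 RPM in the other cells. The name of the cluster is therefore only a label for these 8 cells. E17 cell 2 joined the smaller cluster when 500 or 2000 genes were used in place of 1000. Depth ran from 472189 to 3556592 reads per cell. Gonadal somatic markers summed to 22.2 to 20392 RPM in gonad cells, highest in the E47 cell, and to 2.96 to 364 RPM in embryo cells. The markers DAZL and DDX4 of later germ cells averaged 80.7 ± 99.4 and 79.1 ± 55.8 RPM (SD, n = 9 cells) in the gonad, and 0.034 ± 0.17 and 0.51 ± 1.68 RPM in embryo cells (SD, n = 25 cells).

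Of the 5 factors, POU5F1 had the largest difference between gonad and embryo germ-cell-like cells relative to the spread between cells. The 3 cells of E13 held 3931, 4825 and 5885 RPM, and the E14 cell held 3725 RPM. The 11 cells of E16 ran from 806 RPM through a median of 3842 to 5473 RPM, and the 2 cells of E17 held 1822 and 5953 RPM. The E16 minimum was cell 8, the single cell of that stage in the mesoderm-like cluster, and the other 10 cells held at least 2444 RPM. At E36 the 6 cells held 1575, 1536, 1929, 1931, 1214 and 1477 RPM. The E47 cell held 599.5 RPM, and the E55 cells held 2639 and 1611 RPM. Summed over a stage, POU5F1 was at 3890 RPM at E16 (exact Poisson 95% interval 3867 to 3913) and at 1615 RPM at E36 (1592 to 1639), so counting error is far smaller than the spread between cells. These intervals cover counting error only, since amplified cDNA was counted without molecular identifiers.

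Among germ-cell-like cells POU5F1 averaged 1612 ± 555 RPM in the gonad (SD, n = 9 cells) and 4082 ± 1350 RPM in embryos (SD, n = 17 cells), 2.53-fold lower in the gonad and -1.34 in mean log2(RPM + 1). At E36 alone it averaged 1610 ± 278 RPM (SD, n = 6 cells) against 4157 ± 1094 RPM in the germ-cell-like cells of E16 (SD, n = 10 cells), 2.58-fold lower. No E36 cell reached the lowest of those E16 cells, 2444 RPM. Of all genes measured in that comparison, 0.435% were likewise lower at E36 with no overlap. Over the whole gonad the germ-cell-like cells did overlap, at 599.5 to 2639 RPM against 1684 to 5953 RPM in embryos. Counted over all embryo cells, the mesoderm-like ones included, the difference in mean log2(RPM + 1) was -0.34, because POU5F1 was also low in E20 cells. The title codes differ between stages (MS09 for E16, MS11 for E36) and cannot be told apart from stage there. Within MS11, which also holds the 2 E17 cells, the gonad against embryo difference of POU5F1 was -1.12. The same setting gave 0.11 for NANOG, -0.27 for SALL4, 0.24 for KLF4, -0.59 for TFCP2L1 and -0.26 for the index of core against naive-associated factors defined below, so the 2-fold calls that NANOG (1.76) and KLF4 (2.17) had over all cells ended there.

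NANOG, a homeodomain factor that stabilises self-renewal, differed less between embryo and gonad than POU5F1 did. At E13 it was at 1298, 1182 and 1447 RPM, at E14 at 1434 RPM, and at E16 it ran from 222 (cell 8) through a median of 1042 to 2193 RPM (cell 3). The E17 cells held 1221 and 576 RPM. The 6 E36 cells held 1323, 1278, 909, 1157, 647 and 1121 RPM, the E47 cell 552 RPM and the E55 cells 1183 and 479 RPM. The range of the E36 cells lay within that of the E16 cells. In germ-cell-like cells NANOG averaged 961 ± 325 RPM in the gonad (SD, n = 9 cells) and 1200 ± 467 RPM in embryos (SD, n = 17 cells), a difference of -0.30 in mean log2(RPM + 1), smaller than the spread between cells (0.57, the root mean of the 2 groups' variances). With the E47 cell, E36 cell 5 and E55 cell 2 left out, that difference was 0.05, while that of POU5F1 was -1.08. The gonadal somatic markers of these 3 cells summed to 20392, 1040 and 362 RPM. E36 cell 1 was kept, although its sum of 404 RPM was above that of E55 cell 2. The 3 cells left out also held the lowest NANOG of the gonad, so the value of 0.05 depends on this choice. Over all cells NANOG was instead 1.76 higher in the gonad on the log2 scale, because the embryo group then includes E20 cells with almost no NANOG, and without the E20 cells the difference was -0.22.

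The ratio of NANOG to POU5F1 in a cell, a measure added after the values had been seen, put the contrast on 1 scale. It compares cells with each other and not the abundance of the 2 transcripts. The 3 cells of E13 were at 0.221, 0.245 and 0.368, the E14 cell at 0.385 and the E17 cells at 0.205 and 0.316. At E16 the ratio averaged 0.303 ± 0.084 (SD, n = 11 cells) with a range of 0.158 to 0.454. At E36 it averaged 0.672 ± 0.159 (SD, n = 6 cells) with a range of 0.471 to 0.840. Every E36 cell thus lay above every E16 cell. How often other pairs of genes do so was not measured, and the pair was picked with the values known. The E47 cell had a ratio of 0.921, the highest of all 34 cells, and also the highest gonadal somatic sum, whose part in the ratio was not tested. The E55 cells, at 0.448 and 0.298, fell back within the E16 range, so the gonad as a whole overlapped the embryo. Between cells, POU5F1 and NANOG had a Pearson r of 0.74 over 34 cells and 0.62 over the 26 germ-cell-like cells, as a description of log2(RPM + 1) values that share each cell's library and depth.

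**Figure D1:**
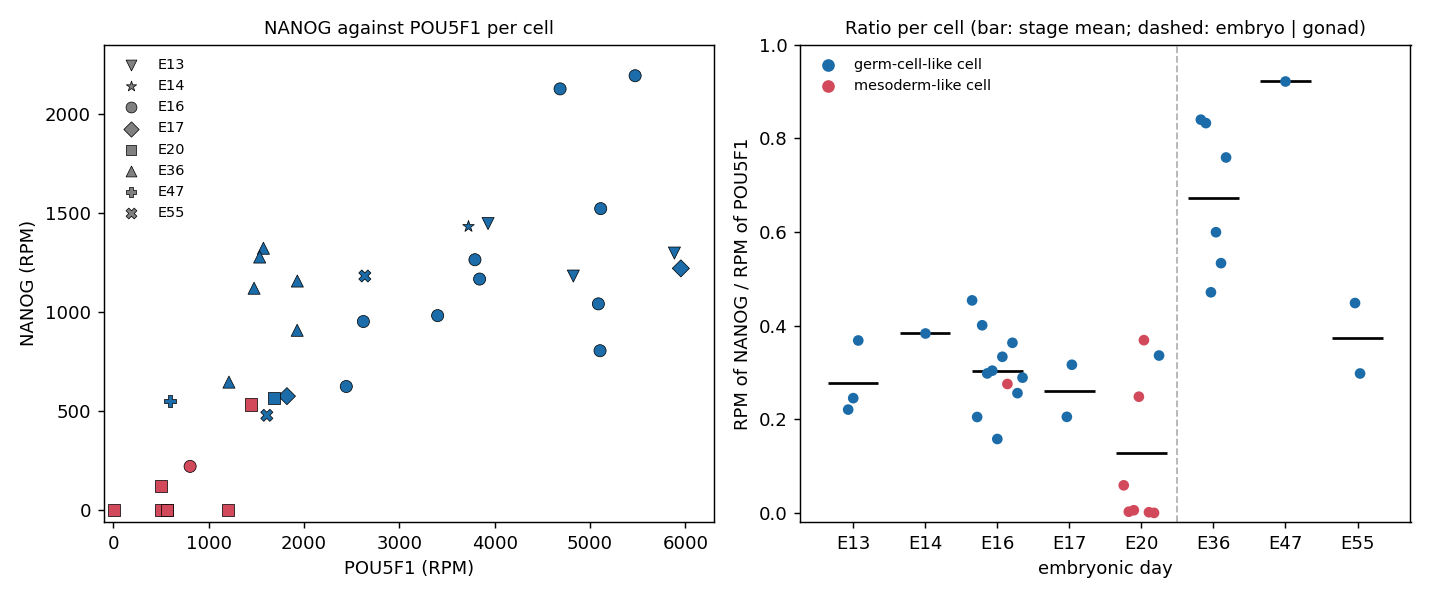
NANOG against POU5F1 in RPM for each of the 34 cells (left) and their ratio by embryonic day (right, 1 point a cell, bars at stage means). The E36 cells lie at 0.471 to 0.840 and the E16 cells at 0.158 to 0.454, while the E55 cells are at 0.448 and 0.298.

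SALL4, a zinc finger factor that supports POU5F1 transcription and is needed by early germ cells in mice, was the only member at 15 RPM or more in all 34 cells. The E13 cells held 249.9, 25.8 and 323 RPM, so 1 cell was far below the others, and the E14 cell held 188 RPM. At E16 the range was 133 to 382 RPM with a median of 224 RPM, and at E17 the cells held 59.4 and 270 RPM. The E36 cells held 37.3, 72.7, 31.8, 350.3, 89.3 and 169 RPM, the E47 cell 71.7 RPM and the E55 cells 240 and 190.5 RPM. E36 cell 4 was thus above all but 1 of the E16 cells, while 4 of the 6 E36 cells were below all of them. Between E36 and E16 the difference in mean log2(RPM + 1) was -1.29 and the mean RPM was 1.84-fold lower, or 2.87-fold lower without E36 cell 4. Restricted to germ-cell-like cells the log2 difference was -1.21, where 28.8% of all genes measured were at least 2-fold lower and 8.47% higher, and it was under 2-fold without E36 cell 1 (-0.97) or cell 3 (-0.92). Over the whole gonad, germ-cell-like cells averaged 139 ± 107 RPM (SD, n = 9 cells) against 202 ± 85.1 RPM in embryos (SD, n = 17 cells), a log2 difference of -0.74 that is smaller than the spread between cells (1.06).

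**Figure D2:**
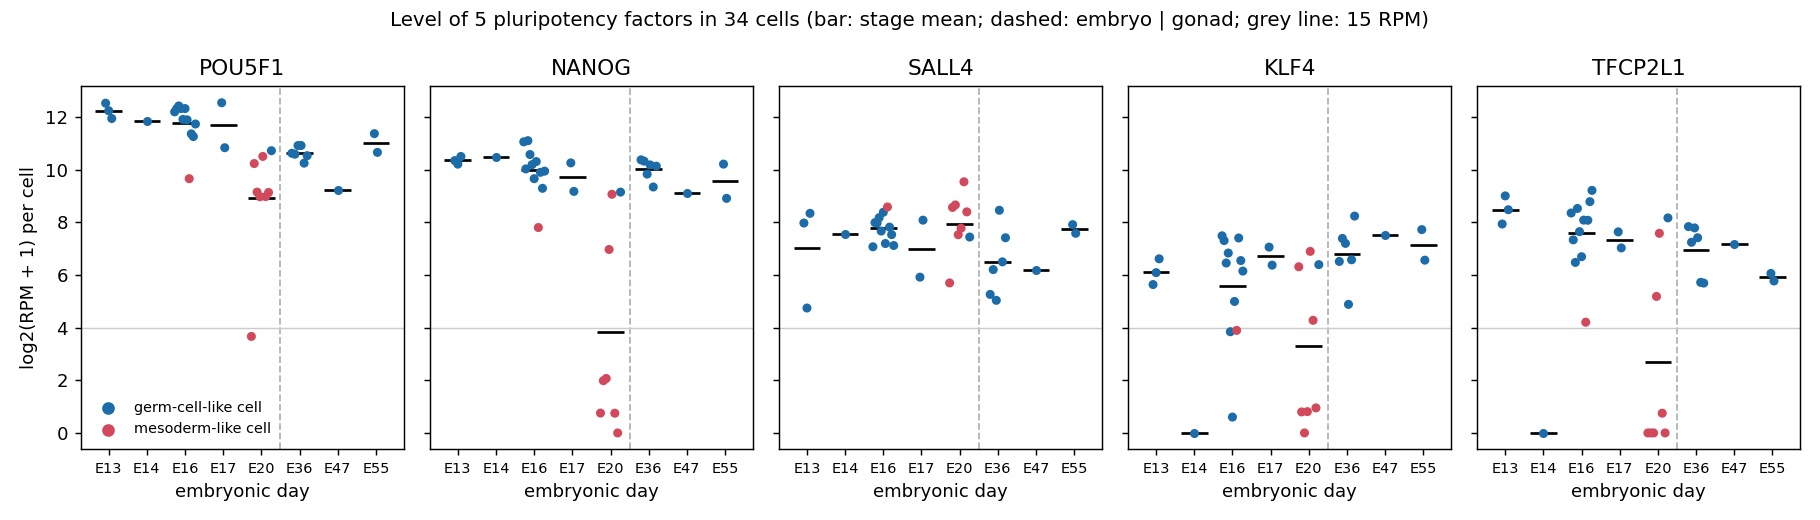
Level of each factor in log2(RPM + 1) by embryonic day, 1 point a cell, bars at stage means and a grey line at 15 RPM. The stage means of POU5F1 are lower in the gonad than at E13 to E17, though single cells overlap. SALL4 is above the line in all 34 cells, and NANOG, KLF4 and TFCP2L1 reach the bottom of the scale at E20.

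KLF4, a zinc finger factor of the naive network and one of the classical reprogramming factors, varied more than the core factors over the 26 germ-cell-like cells. Its SD of log2(RPM + 1) was 1.95 there against 0.58 to 1.06, with cells at 0 and 1 read included. This did not hold in every group. In the gonad the SD was 0.97 for KLF4 and 1.18 for SALL4. In the germ-cell-like cells of E16 it was 2.14 for KLF4 and 0.46 for SALL4. KLF4 was at 48.7, 67.0 and 96.9 RPM in the E13 cells. It ran from 0.52 through a median of 86.6 to 178 RPM at E16, and was at 132 and 81.8 RPM in the E17 cells. The E14 cell had 0 reads of KLF4 among 2310018, which allows up to 1.299 RPM, and E16 cell 6 had 1 read. The E36 cells held 90.3, 166, 146, 28.5, 94.4 and 300.3 RPM, the E47 cell 183 RPM and the E55 cells 210 and 93.4 RPM. In germ-cell-like cells KLF4 averaged 146 ± 80.7 RPM in the gonad (SD, n = 9 cells) and 83.5 ± 54.96 RPM in embryos (SD, n = 17 cells), 1.75-fold higher in mean RPM. The log2 difference of 1.32 fell to 0.97 without the E14 cell, and it was smaller than the spread between cells (1.70). Between E36 and E16 over all cells it was 1.21, and under 2-fold without E36 cell 6 (0.92) or E16 cell 6 (0.71). Restricted to germ-cell-like cells it was 1.04, and under 2-fold without any 1 of 6 cells, at 0.46 to 0.96. KLF4 was nevertheless at 28.5 RPM or more in every gonad cell.

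TFCP2L1, a CP2-type factor that acts with KLF4 downstream of LIF in mouse stem cells, was on average lower in gonad than in embryo germ-cell-like cells. It was at 244, 512 and 355 RPM in the E13 cells, ran from 17.5 through a median of 269 to 592 RPM at E16, and was at 198 and 129 RPM in the E17 cells. The E14 cell again had 0 reads. The E36 cells held 228, 150, 220, 169, 51.6 and 50.7 RPM, the E47 cell 143 RPM and the E55 cells 65.6 and 53.6 RPM. In germ-cell-like cells it averaged 126 ± 72.4 RPM in the gonad (SD, n = 9 cells) and 267 ± 156 RPM in embryos (SD, n = 17 cells), 2.12-fold lower in mean RPM. The log2 difference was -0.75, and -1.22 without the E14 cell. Over all cells the log2 difference was 0.94 higher in the gonad, though the mean RPM was 1.52-fold lower there, because 5 embryo cells had 0 reads of it. KLF4 and TFCP2L1 had a Pearson r of 0.51 over the 26 germ-cell-like cells, which rested on the E14 cell: without it r was -0.04.

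The members called at a 2-fold difference in mean log2(RPM + 1) were read against all genes measured. Between gonad and embryo over all cells, NANOG and KLF4 were called higher, where 7.62% of the 15245 genes measured were, and none of the 5 was called lower, where 15.1% were. SALL4 at -0.94 and TFCP2L1 at 0.94 lay next to the threshold, and each was past it without any 1 of 7 or 18 cells, at up to -1.16 and 1.08. Within germ-cell-like cells KLF4 was called higher (9.01% of all genes) and POU5F1 lower (14% of all genes). Between E36 and E16 over all cells KLF4 was called higher (7.28% of all genes), and POU5F1 and SALL4 lower (30.2% of all genes, whose median difference was -0.48). From E13 to E16 no member was called in either direction, where 23.3% of all genes were called higher and 17.2% lower. The E16 against E13 differences were -0.47 for POU5F1, -0.37 for NANOG, 0.75 for SALL4, -0.52 for KLF4 and -0.89 for TFCP2L1, although the mean RPM of KLF4 was 1.19-fold higher at E16. The direction of SALL4 turned without E13 cell 2 (-0.38), and it was past the threshold without E13 cell 1 (1.23) or cell 3 (1.41). TFCP2L1 was past it without E13 cell 1 (-1.16), E16 cell 10 (-1.01) or E16 cell 11 (-1.05). The E13 cells were all germ-cell-like, while the E16 group includes the mesoderm-like cell 8. Without that cell the differences shrank to -0.26 for POU5F1, -0.15 for NANOG and -0.55 for TFCP2L1. These comparisons share the E16 cells. In E16 against E13 the title code (MS10 at E13, MS09 at E16) cannot be told apart from stage. Mean depth was 632703 reads at E13 and 2467314 reads at E16.

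Core and naive-associated factors were then set against each other in each cell, as the mean log2(RPM + 1) of POU5F1, NANOG and SALL4 minus that of KLF4 and TFCP2L1. A higher index means relatively more of the core factors, and only differences between cells can be read from it. At E13 the 3 cells were at 3.49, 1.52 and 2.72. E16 averaged 3.25 ± 1.46 (SD, n = 11 cells) with a range of 1.69 to 6.47, its highest value in cell 6, and the E17 cells were at 2.22 and 2.66. The E14 cell stood at 9.97, the highest of the 34, since its core mean of 9.97 was above the E16 mean of 9.84 while both naive-associated factors were at 0 reads. At E36 the index averaged 2.17 ± 0.92 (SD, n = 6 cells) with a range of 1.10 to 3.70. The E47 cell was at 0.83 and the E55 cells at 2.94 and 2.88. Germ-cell-like cells averaged 2.19 ± 0.94 in the gonad (SD, n = 9 cells) and 3.27 ± 2.11 in embryos (SD, n = 17 cells), or 2.85 ± 1.25 without the E14 cell (SD, n = 16 cells). The gonad was thus 1.08 lower (index difference -1.08), or -0.66 without the E14 cell, which is within the spread of either group.

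**Figure D3:**
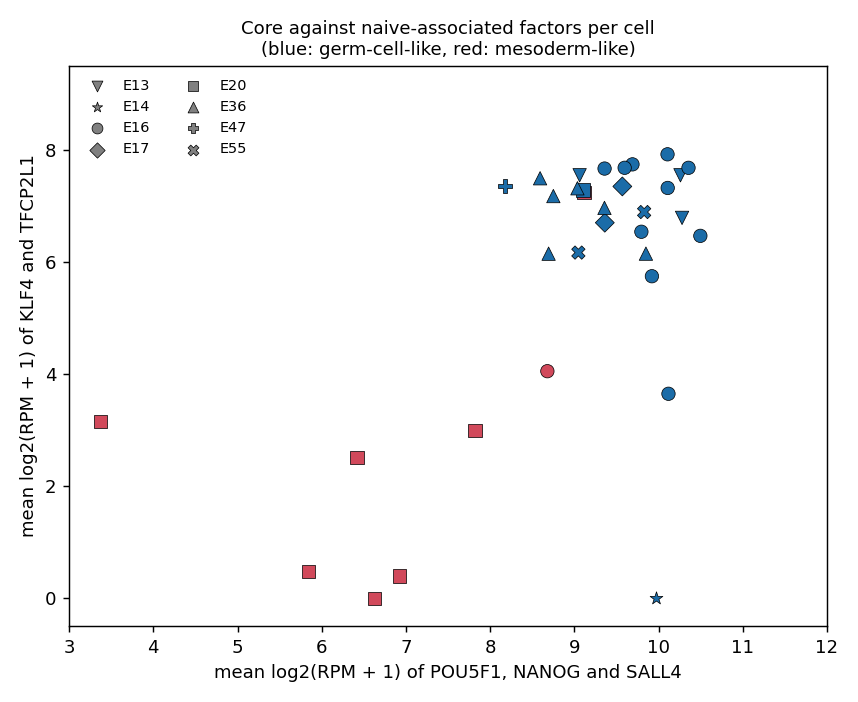
Mean log2(RPM + 1) of KLF4 and TFCP2L1 (vertical) against that of POU5F1, NANOG and SALL4 (horizontal), 1 point a cell, coloured by cluster. Most germ-cell-like cells group at the upper right. The E14 cell has a core mean of 9.97 and a naive-associated mean of 0, and E16 cell 6 has a naive-associated mean of 3.65. The mesoderm-like E20 cell 5, at a core mean of 9.11 and a naive-associated mean of 7.24, lies among the germ-cell-like cells.

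Detection was also counted jointly. All 5 factors reached 15 RPM in 24 of 34 cells: 3 of 3 at E13, 8 of 11 at E16, 2 of 2 at E17, 2 of 8 at E20, 9 of 9 in the gonad and not in the E14 cell. Thinning every cell to 468719 reads left the same count of 24. The 3 core factors reached it together in 26 of 26 germ-cell-like cells, and both naive-associated factors in 23 of 26. The exceptions were the E14 cell, with neither naive-associated factor, and E16 cells 5 and 6, where KLF4 was at 13.4 and 0.52 RPM while TFCP2L1 was at 199 and 102 RPM. Singly, POU5F1 reached 15 RPM in 33 of 34 cells, NANOG in 29, TFCP2L1 in 28 and KLF4 in 26.

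At E20 all 5 factors were found together in 2 of 8 cells, and 7 of the 8 cells were in the mesoderm-like cluster. Cell 8, the germ-cell-like cell of that stage, held POU5F1 at 1684, NANOG at 566, SALL4 at 173, KLF4 at 83.0 and TFCP2L1 at 286 RPM. Cell 5 held all 5 as well, at 1448 RPM of POU5F1, 534 of NANOG, 218 of SALL4, 118 of KLF4 and 190 of TFCP2L1, although it fell in the mesoderm-like cluster. Its mesoderm markers summed to 8665 RPM and its germ cell markers to 806 RPM, the highest germ cell sum among the mesoderm-like cells. Whether that library holds 1 cell was not tested.

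In the remaining 6 E20 cells the members differed from one another in level relative to E16. POU5F1 was at 500 RPM or more in cells 2, 3, 4, 6 and 7, at 1201, 566, 500, 502 and 560.5 RPM, and at 11.7 RPM (17 reads) in cell 1. NANOG was at 2.96, 3.20, 124, 0.68 and 0 RPM in the same 5 cells and at 0.69 RPM in cell 1, so cell 4 alone of the 6 was above 15 RPM. The 0 in cell 7 allows up to 2.80 RPM. SALL4 was at 378, 403, 184, 742 and 336 RPM in cells 2, 3, 4, 6 and 7, and at 50.9 RPM in cell 1, and the 742 RPM of cell 6 was the highest of all 34 cells. TFCP2L1 was at 35.4 RPM in cell 4 and at 0 or 1 read in the other 5 cells. KLF4 was at 78.4 RPM in cell 1 and 18.4 RPM in cell 6, and at 0 or 1 read in cells 2, 3, 4 and 7. Cell 1, the cell with the endothelial markers CDH5 and KDR, had the lowest POU5F1 and SALL4 of the E20 cells but KLF4 at a level close to that of the germ-cell-like cell 8. The part of these markers in its values was not tested. Its index was 0.22, the lowest of the 34 cells, while cells 2 and 3, with POU5F1 and SALL4 but neither naive-associated factor, were at 6.53 and 6.63.

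**Figure D4:**
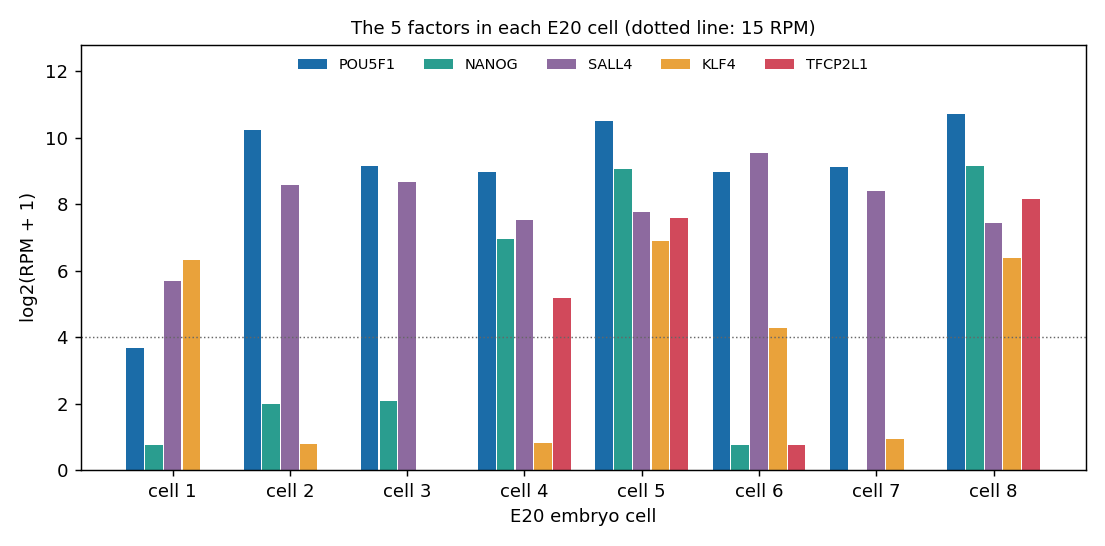
The 5 factors in each of the 8 E20 cells in log2(RPM + 1), with a dotted line at 15 RPM. Cells 5 and 8 have all 5 above the line, cells 2, 3 and 7 only POU5F1 and SALL4, and cell 1 only SALL4 and KLF4.

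Averaged over the stage, POU5F1 was at 809 ± 570 RPM at E20 (SD, n = 8 cells) against 3852 ± 1449 RPM at E16 (SD, n = 11 cells), 4.76-fold lower and -2.84 in mean log2(RPM + 1). NANOG averaged 154 ± 248 RPM against 1173 ± 594 RPM, 7.62-fold lower, with a log2 difference of -6.14. That fold was 11.8 without E20 cell 5 and 12.3 without cell 8. TFCP2L1 averaged 64.1 ± 111 against 257 ± 169 RPM, 4.01-fold lower and -4.87 on the log2 scale, or 7.95-fold lower without cell 8. KLF4 averaged 37.5 ± 47.8 against 84.0 ± 64.9 RPM, 2.24-fold lower and -2.29 on the log2 scale. SALL4 averaged 310 ± 211 against 230 ± 81.1 RPM, a log2 difference of 0.18 that is smaller than the spread between cells (0.89). In all, 4 of the 5 were called lower, where 18.9% of the 14998 genes measured were, and none was called higher, where 13.9% were.

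Cell 8 is the single E20 cell of the germ-cell-like cluster. Set against the 10 germ-cell-like cells of E16, its log2 differences were -1.25 for POU5F1, -1.06 for NANOG, -0.25 for SALL4, 0.63 for KLF4 and 0.25 for TFCP2L1, with 1 cell on the E20 side. Its 1684 RPM of POU5F1 was below the lowest of those E16 cells, 2444 RPM. Cell 8 also shares the title code MS09 with the E16 cells, while the other 7 E20 cells carry MS08. Within MS09 the differences from all E16 cells were -1.04 for POU5F1, -0.84 for NANOG, -0.33 for SALL4, 0.80 for KLF4 and 0.59 for TFCP2L1. For the other 7 cells, code, stage and cell kind cannot be told apart. E16 cell 8, in the mesoderm-like cluster and with the endoderm markers given above, also carries MS09. It held POU5F1 at 806 and NANOG at 222 RPM and TFCP2L1 at 17.5 RPM, each the lowest of the 11 cells, with KLF4 at 13.9 RPM and SALL4 at 382 RPM, the highest of the 11.

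SALL4 also stood apart in how it varied over the 34 cells, but not within germ-cell-like cells. Over the 34 cells its r was 0.08 with POU5F1, -0.29 with NANOG, -0.42 with KLF4 and -0.33 with TFCP2L1. NANOG and TFCP2L1 had 0.83 there, and KLF4 and TFCP2L1 0.66. Over the 26 germ-cell-like cells the r of SALL4 was 0.28, 0.04, -0.26 and -0.15 in the same order. The lowest value there was that of POU5F1 and KLF4, -0.31. The NANOG and TFCP2L1 value was -0.01, and 0.24 without the E14 cell. These are descriptions of cells that share libraries and stages, and the mesoderm-like cells set much of them.

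The genes most like each member were taken as the 3 with the highest r over the 34 cells, among the 7478 that have a human symbol and average 15 RPM or more. For POU5F1 these were ESRP1, a splicing regulator of epithelial cells (r = 0.81), AP3B2, an adaptor complex subunit (0.80), and FAM59A (0.78). Within the 26 germ-cell-like cells their r was 0.34, 0.52 and 0.55. For NANOG they were SOX15, an SRY-box factor (0.97), NLRP2 (0.94) and ELAVL2, an RNA-binding protein gene used here also as a germ cell marker (0.88), with 0.40, 0.54 and 0.17 within germ-cell-like cells. For TFCP2L1 they were TTC18 (0.89), SOX15 again (0.87) and CDO1, a cysteine dioxygenase (0.85), with 0.57, 0.37 and 0.47 within germ-cell-like cells. For KLF4 they were DOCK11 (0.74), HLCS (0.70) and PAPD5 (0.69), with 0.48, 0.60 and 0.47. SALL4 was nearest to KIF20B, a mitotic kinesin (0.64), CDC25C, a phosphatase of mitotic entry (0.64), and LYAR, a nucleolar protein gene (0.63). Those values were 0.63, 0.69 and 0.61 within germ-cell-like cells. For every member, these 26 cells are among the 34 used to pick the genes, so their r is no separate check. How high the top r among 7478 genes would be by chance was not measured.

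Further genes of the network were read from lists chosen with earlier results of these data known, which share some members. Of 13 measured partners of the core factors, 2 were at least 2-fold higher and 3 lower in gonad than in embryo germ-cell-like cells, with a median difference of -0.45. Over all 14813 genes measured 9.01% were higher and 14% lower, with a median of -0.10, and these shares apply to the gonad counts of every list below. With E36 cell 5, E55 cell 2 and the E47 cell left out, 7.96% of all genes were higher and 24.1% lower, with a median of -0.34, and the partners had 1 higher and 3 lower with a median of -0.25. GDF3, a TGF-beta family ligand, averaged 19.8 ± 41.4 RPM in the gonad (SD, n = 9 cells) and 217 ± 270 RPM in embryos (SD, n = 17 cells). PRDM14, a germ cell and naive-state repressor, averaged 22.8 ± 27.0 against 78.6 ± 66.6 RPM, and TDGF1, the NODAL co-receptor, 40.8 ± 40.1 against 185 ± 171 RPM. DPPA2 was higher at 21.1 ± 23.9 against 6.86 ± 12.03 RPM, and LIN28B at 43.6 ± 54.3 against 15.7 ± 25.2 RPM. SOX2, the usual partner of OCT4 in pluripotent cells, averaged 1.97 ± 1.36 RPM in the gonad and 3.36 ± 8.93 RPM in embryos, and reached 15 RPM in 1 of these 26 cells, the E14 cell, at 37.7 RPM.

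Of 12 other naive-associated genes measured, 2 were higher and 1 lower in gonad germ-cell-like cells, with a median difference of 0.26. Without the same 3 gonad cells the count was 2 higher and 3 lower of 10, with a median of -0.03. DPPA3, which protects maternal and germline methylation states, averaged 82.3 ± 66.9 against 31.0 ± 35.3 RPM, and DNMT3L, a cofactor of de novo DNA methylation, 103 ± 61.5 against 31.6 ± 34.1 RPM. DPPA5 averaged 34.2 ± 66.8 against 80.0 ± 104 RPM. KLF17 was at 0 reads in all 9 gonad cells and averaged 2.55 ± 6.97 RPM in embryos. ESRRB averaged 3.96 ± 8.47 and 0.56 ± 0.66 RPM. Among 11 primed epiblast genes 4 were lower and none higher, with a median of -0.12, close to that of all genes, and the 4 were SALL2, NODAL, ZIC2 and DNMT3B. SALL2 averaged 21.6 ± 30.6 against 65.0 ± 44.3 RPM and NODAL 12.3 ± 34.8 against 46.8 ± 56.1 RPM.

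The LIF and STAT3 route, which lies upstream of KLF4 and TFCP2L1 in mouse stem cells, had 1 of 7 measured genes higher and 2 lower, with a median of -0.33, or 2 higher and 3 lower with a median of -0.73 without those 3 gonad cells. LIFR, the LIF receptor, averaged 83.4 ± 58.9 RPM in gonad against 24.5 ± 34.0 RPM in embryo germ-cell-like cells, and IL6ST, its signalling partner, 200 ± 85.7 against 141 ± 113 RPM (log2 difference 0.94). SOCS3, the feedback inhibitor of the route, averaged 5.35 ± 8.76 against 41.5 ± 40.4 RPM, and OSMR, a related receptor, 3.89 ± 5.45 against 16.6 ± 18.6 RPM. From E13 to E16 4 of 7 were higher and none lower, with a median of 1.37, where 23.3% of all genes were higher and 17.2% lower, with a median of 0.20. IL6ST averaged 24.7 ± 22.99 RPM at E13 (SD, n = 3 cells) and 155 ± 93.6 RPM at E16 (SD, n = 11 cells). STAT3 averaged 40.9 ± 35.3 and 94.7 ± 45.9 RPM in the same order. Title code and depth also differ between E13 and E16, as given above, and their part in these values was not tested.

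Relatives of the members by protein family were counted in the same way. Of 14 measured KLF genes 1 was higher (KLF3, 24.8 ± 30.8 against 7.86 ± 15.4 RPM) and 1 lower (KLF7, 34.5 ± 31.2 against 72.6 ± 58.5 RPM) in gonad germ-cell-like cells, with a median of 0.02. Leaving out the 3 gonad cells gave 2 lower and none higher of 12, and a median of -0.65. Of 3 other SALL genes 1 was lower (SALL2), with a median of -0.82, and of 5 relatives of TFCP2L1 none was called, with a median of -0.51, and 2 were lower, with a median of -0.40, without the 3 gonad cells. TFCP2, its closest relative, averaged 57.2 ± 54.8 against 103 ± 102 RPM.

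**Figure D5:**
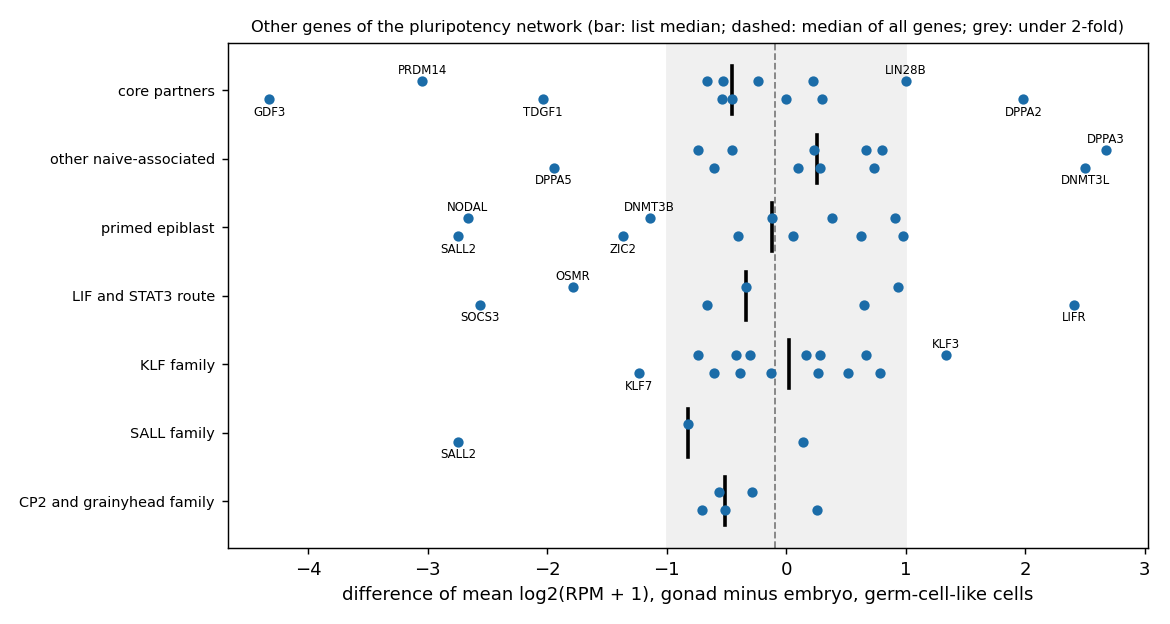
Difference of mean log2(RPM + 1), gonad minus embryo germ-cell-like cells, for each measured gene of the 7 lists, with a bar at each list's median and a dashed line at the median of all genes (-0.10). GDF3 lies lowest among the core partners, and DPPA3, DNMT3L and LIFR are among the genes that are higher.

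At E20, 8 of 14 measured core partners were called lower than at E16, 2 higher and 4 neither, with a median difference of -1.91. Over all genes 18.9% were lower and 13.9% higher, with a median of -0.12, and these shares apply to the E20 counts that follow. SOX15 averaged 76.5 ± 122 RPM at E20 (SD, n = 8 cells) and 277 ± 132 RPM at E16 (SD, n = 11 cells), DPPA4 59.2 ± 53.1 against 265 ± 96.9 RPM, and GDF3 0.38 ± 0.41 against 168 ± 202 RPM. LIN28B was higher, at 166 ± 100 against 15.6 ± 33.3 RPM, and LIN28A, the related let-7 regulator, was at 594 ± 298 against 680 ± 236 RPM. The other naive-associated genes had 4 of 12 higher and 4 lower, with a median of 0.07, and the primed genes 4 of 11 higher and 3 lower, with a median of 0.37. TBX3, a T-box factor of naive stem cells that mesoderm also uses, averaged 140 ± 116 against 43.1 ± 90.7 RPM. The relatives of SALL4 were higher in 2 of 3, SALL1 at 82.7 ± 77.9 against 11.3 ± 28.3 RPM and SALL3 at 95.2 ± 109 against 22.5 ± 41.8 RPM. In the LIF and STAT3 route 3 of 7 were lower and 1 higher, with a median of -0.92. STAT3 averaged 31.7 ± 23.6 against 94.7 ± 45.9 RPM and the receptor IL6R 9.39 ± 14.5 against 105 ± 81.6 RPM, while LIFR was higher at 146 ± 136 against 46.3 ± 87.2 RPM. These means mix 7 mesoderm-like cells with 1 germ-cell-like cell, and mesoderm markers summed to 163 to 15054 RPM at E20. The part of cell kind in these list counts was not tested.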

How the data were processed

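Per the submitters' processing notes the tools were cutadapt 1.3, TopHat 1.4.1 and Cufflinks 2.2.0, with no roles stated. Genome build and annotation: not given in the sources used here. Expression values were deposited by the authors as 1 table named for RPM but holding log2(RPM + 1). They were turned back to RPM, and each cell's reads were recovered from the step between low values (99.7% to 100% whole within 0.1 read). Depth is thus known, and 0 reads allows up to 3 reads of a cell's total. Reads of near-identical copies of a gene, such as the processed pseudogenes of POU5F1 and NANOG, could not be told apart.

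Each stage counted as 1 sample, without tests. A gene was measured at a mean of 1 RPM in 1 group and called at a 2-fold difference in mean log2(RPM + 1). Cells were clustered by average linkage on 1 minus Pearson's r over 1000 genes. The members, lists and cells left out for somatic transcripts were chosen with earlier results of these data known. The choice of those cells does not follow a cut on the somatic sum, as given in the results. The text names the 5 members at each stage, list genes with the highest level or largest difference, and the 3 genes most like each member. It also names marker genes that describe the cells, and cells highest or lowest in a stage. Other cells and list genes that are named were chosen after their values were seen. Of 72 other list genes 69 matched the table. Alternatives changed the pseudocount (10), scaling (median of ratios), averaging, filters, clusters, title codes and cells left out one at a time. RefSeq (assembly T2T-MFA8v1.1) was used for names only. Scripts ran in Python 3.11.15 with pandas 2.3.3, numpy 2.4.6 and scipy 1.17.1 and were tested on simulated data. A gene of the lists is not reported here by name.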

Additional observations from a re-analysis of the deposited data

Results flagged for a closer look

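POU5F1 in E20 cell 1 lay far below the other 7 cells of its stage, at 3.67 in log2(RPM + 1), or 11.7 RPM from 17 reads, when the gap to the nearest cell was set against the whole range of the stage. The next lowest E20 cell held 500 RPM. The same cell had KLF4 at 78.4 RPM and SALL4 at 50.9 RPM, with mesoderm markers at 5134 RPM and germ cell markers at 612 RPM. Its blood and endothelium markers summed to 1800 RPM, the highest of the 34 cells, with CDH5 at 1202 and KDR at 598 RPM. This was the 1 flag among 14 groups of cells screened (7 measures at E20 and at E36), where chance flags about 1 in 20 groups.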

How the results depend on the processing

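For each of the 5 factors, the index and the NANOG to POU5F1 ratio in the 4 comparisons, a value that differed by 1 or more on the log2 scale (for the ratio, by more than the spread between cells) counted as reversed when its sign turned (17 cases), and any other as moved when it went further than the spread between cells (11 cases), which leaves 796 values. The 796 also include, for each factor, the number of cells that reached 5 RPM, 50 RPM or, after thinning, 15 RPM. These detection counts have no sign. Counting every turn of sign, however small the value, 44 of 236 alternatives turned, with the detection counts among the 236. So did 7 of 588 values with 1 cell left out. With 1 cell left out the signs of E16 against E13 SALL4 (0.75 to -0.38) and ratio (0.025 to -0.0034), E20 against E16 SALL4 (0.18 to -0.05) and E36 against E16 NANOG (0.04 to between -0.17 and -0.02, in 4 cases) turned. Differences under 2-fold that turned under other settings were gonad against embryo TFCP2L1 (0.94 to between -0.78 and -0.41, in 8 cases), E36 against E16 NANOG (to between -0.17 and -0.04, in 5), E16 against E13 KLF4 (-0.52 to 0.25 or 0.36) and SALL4 (to -0.16), E20 against E16 SALL4 (to between -0.33 and -0.25, in 4) and the E20 against E16 index (0.64 to between -2.56 and -0.30, in 7). Of the larger differences, the gonad against embryo difference of NANOG (1.76) reversed to -0.30 in germ-cell-like cells, to -0.36 with 500 or 2000 genes in the clustering, and to -0.22 without E20 cells. The index difference between gonad and embryo became 0.21 with NANOG alone as core factor. For E20 against E16 with germ-cell-like cells only, under each clustering, NANOG was at -1.06, KLF4 at 0.63, TFCP2L1 at 0.25 and the ratio difference at 0.030. Within title code MS09 these were -0.84, 0.80, 0.59 and 0.033, with POU5F1 at -1.04 and the index at -1.43. Each of these has 1 cell on the E20 side. As log2 ratios of mean RPM, the E20 against E16 differences were -2.93 for NANOG and -2.01 for TFCP2L1, and with medians over cells TFCP2L1 was at -7.70. The E20 against E16 index was -2.56 with NANOG alone and 3.76 with SALL4 alone as core factor. The cause of these changes was not tested beyond what each setting leaves out. List counts of the 4 comparisons over all cells stayed within 1.5 times in 112 of 112 cases under other filters on low values. A filter below 1 RPM could not change a count, because a 2-fold call already needs a mean of 1 RPM in 1 group. The list counts of germ-cell-like cells were not among these cases. Leaving out the 3 gonad cells named in the results moved several of those by more, as given there. No paired analysis was possible because the cells are numbered only in accession order and no animal is named. Depth sets the limit for low levels: a count of 0 allows up to 0.844 RPM in the deepest and 6.35 RPM in the shallowest cell.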

Other observations

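Among other genes of the pluripotency lists, 3 patterns in single cells were seen after the values were known and were not tested. FGF4, a ligand of the early epiblast and primitive streak, was at 255, 495 and 738 RPM in E20 cells 2, 6 and 7 and at 10.9 RPM in cell 3, with 0 reads in the E16 cells. Cells 2, 6 and 7 had POU5F1 at 1201, 502 and 560.5 RPM and NANOG at 2.96, 0.68 and 0 RPM, and DUSP6, a target of FGF signalling, was at 369, 709 and 678 RPM in them.

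The E14 cell, which had 0 reads of KLF4 and TFCP2L1, held SOX2 at 37.7, ZIC2 at 69.3, NODAL at 184 and DNMT3B at 342 RPM, where SOX2 is a core partner and the others are primed epiblast genes of the lists. It also held the germ cell markers SOX17 at 1241 and TFAP2C at 1052 RPM and the mesoderm-associated FN1 at 819 RPM. E17 cell 2, whose cluster depends on the number of genes used, held OTX2 at 246.5 and CER1 at 863 RPM beside POU5F1 at 1822 and NANOG at 576 RPM, while E17 cell 1 held OTX2 at 0.75 and CER1 at 0 RPM.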
